A study of Mus musculus with 2 samples.

Results

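The Wnt feedback and target genes of mouse hair follicle cells were examined in RNA of 2 sorted epithelial populations. The set held 9 genes: Ctnnb1, Tcf7, Axin2, Nkd1, Nkd2, Znrf3, Rnf43, Notum and Sp5. It was formed by name, as all probe sets whose platform annotation gives 1 gene symbol equal to a listed gene. This rule found 18 probe sets for 8 of the 9 genes, out of 18193 genes named in this way on the array. Tcf7 was not analysed here, since the annotation used pairs no probe set with that symbol. Of the 8 genes, 7 were measured, meaning that the signal of the probe set standing for the gene reached 57.8 on at least 1 array. That value, the 40th percentile of all signals, served as a floor below which signals were not ordered.

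Back skin follicles came from pups of the CD-1 strain at postnatal day 4 with the genotype K14-RFP/Sox9-EGFP. The RFP reporter is driven by the keratin 14 promoter of basal epithelial cells, and the EGFP reporter reads Sox9, a transcription factor of follicle stem cells. Early bulge cells, from the young form of the niche that will house the follicle stem cells, were sorted as high for RFP and EGFP. Cells of the outer root sheath (ORS) outside the bulge, the outer epithelial layer of the follicle, were sorted as high for RFP and negative for EGFP. Both came from trypsinised follicles freed of the interfollicular epidermis, with dead and large differentiated cells gated out. The labels do not say how many pups were pooled. With 1 array for each population, no value has a replicate, an error or a p-value.

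In the canonical Wnt pathway, secreted Wnt proteins bind Frizzled and Lrp receptors and halt the destruction complex that marks beta-catenin for degradation. Beta-catenin, encoded by Ctnnb1, then enters the nucleus and works with TCF/LEF factors, of which Tcf7 encodes one, to switch on target genes. Several of these targets feed back on the pathway. Axin2 is a scaffold of the destruction complex, Nkd1 and Nkd2 bind Dishevelled in the cytoplasm, Rnf43 and Znrf3 are membrane ubiquitin ligases that remove Frizzled receptors, and Notum is a secreted enzyme that takes the lipid off Wnt proteins. Sp5 is a zinc finger transcription factor that is itself a Wnt target. In the follicle, Wnt signalling is known for its part in follicle formation and in the activation of stem cells and the making of the hair shaft.

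The start site windows of the genes were read for the letters that TCF/LEF factors are known to prefer. The letters searched were CTTTG followed by 2 bases that are each A or T, on either strand, where matches on opposite strands may overlap. RefSeq windows of 250 bases before to 50 bases after a start site (build GRCm38.p6) were found for 7 of the 9 genes, in 10 windows. Of these, 1 window held a match, that of Sp5, with 2 matches. Among all 32851 windows of this length, 16.9% held at least 1. A window without these letters says nothing about binding elsewhere. The Sp5 window is shown because it is the sole one with a match, and 1 Axin2 window because Axin2 had the largest difference of the set. Capitals mark the matches, whose first bases lie 222 and 104 bases upstream of the Sp5 start. The first match reads as CTTTGTT on the other strand, and the matches do not overlap. The Axin2 window has no match and so no capitals.
Sp5, chr2:70474673-70474972, + strand: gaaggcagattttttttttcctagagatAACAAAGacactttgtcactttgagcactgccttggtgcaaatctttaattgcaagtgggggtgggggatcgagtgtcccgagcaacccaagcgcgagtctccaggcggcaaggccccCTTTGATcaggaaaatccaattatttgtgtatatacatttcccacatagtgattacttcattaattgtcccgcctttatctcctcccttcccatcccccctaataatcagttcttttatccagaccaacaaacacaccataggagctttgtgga
Axin2, chr11:108920099-108920398, + strand: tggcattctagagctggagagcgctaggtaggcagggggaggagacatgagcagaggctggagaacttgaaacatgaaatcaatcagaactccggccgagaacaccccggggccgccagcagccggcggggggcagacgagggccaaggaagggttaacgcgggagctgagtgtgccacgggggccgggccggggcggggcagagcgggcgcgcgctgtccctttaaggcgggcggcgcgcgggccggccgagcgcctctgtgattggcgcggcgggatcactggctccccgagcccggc

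The genes behind the gates and the markers of other cell types were read first. Signals are linear MAS5 intensities, and ratios are early bulge over ORS. Sox9 had a signal of 4061 in early bulge and 676 in ORS (6.01-fold), the direction of the EGFP gate. Krt14, whose reporter was high in both gates, had 14706 and 6609 (2.23-fold), with other probe sets 3.33-fold and 5.39-fold higher in early bulge. All 9 basal keratinocyte markers were above the floor on both arrays, and all 9 were brighter in early bulge, 4 of them by 2-fold or more (median log2 ratio 0.94). Other cell types differed between the arrays. Of 13 dermal fibroblast markers, 11 were 2-fold or more higher in ORS, and their summed signal was 9016 in early bulge and 63763 in ORS. Pdgfra and Dpp4 were the 2 of them below the floor in early bulge. Of 10 hair matrix markers, 7 were 2-fold or more higher in ORS (summed signal 3689 and 16501). All 8 upper follicle and junctional zone markers were 2-fold or more higher in early bulge (57434 and 11067). So were 5 of 8 sebaceous gland markers (33177 and 15254) and 6 of 9 measured epidermal differentiation markers (24486 and 5582). Of 8 pericyte and smooth muscle markers, 5 were 2-fold or more higher in ORS (3647 and 18614). The part of these cell types in the values given here was not tested. In sorted bulk RNA, fewer cells of a type and less RNA per cell cannot be told apart.

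None of the 7 measured Wnt feedback and target genes was 2-fold apart between early bulge and ORS. Over all 13252 measured genes, 12.1% were at least 2-fold apart, 7.3% with early bulge higher and 4.78% with ORS higher. The share apart varied with the mean signal of a gene, from 20.65% between 100 and 300 to 6.1% at 3000 or more. Of the genes 2-fold apart, 60.4% were higher in early bulge, a share that was 40.9% after median centring of the arrays. Of the 7 genes, 3 had the brighter signal in early bulge (Axin2, Rnf43 and Ctnnb1) and 4 in ORS (Nkd1, Nkd2, Znrf3 and Notum). After median centring, Rnf43 and Ctnnb1 also had negative log2 ratios. Their log2 ratios ran from -0.37 to 0.74 with a median of -0.06, where the median of all measured genes was 0.04. In absolute size the median was 0.21, against 0.35 over all measured genes. Different probe sets of 1 gene give the only repeat measurement available, and the SD of the difference between their log2 ratios was 0.48 over 9106 pairs. This is technical spread, not spread between animals. Axin2 was the 1 gene of the 7 whose ratio exceeded it. For a single probe set the spread was 0.34, and Nkd1 (-0.37) and Nkd2 (-0.36) also exceeded that in size.

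**Figure D1:**
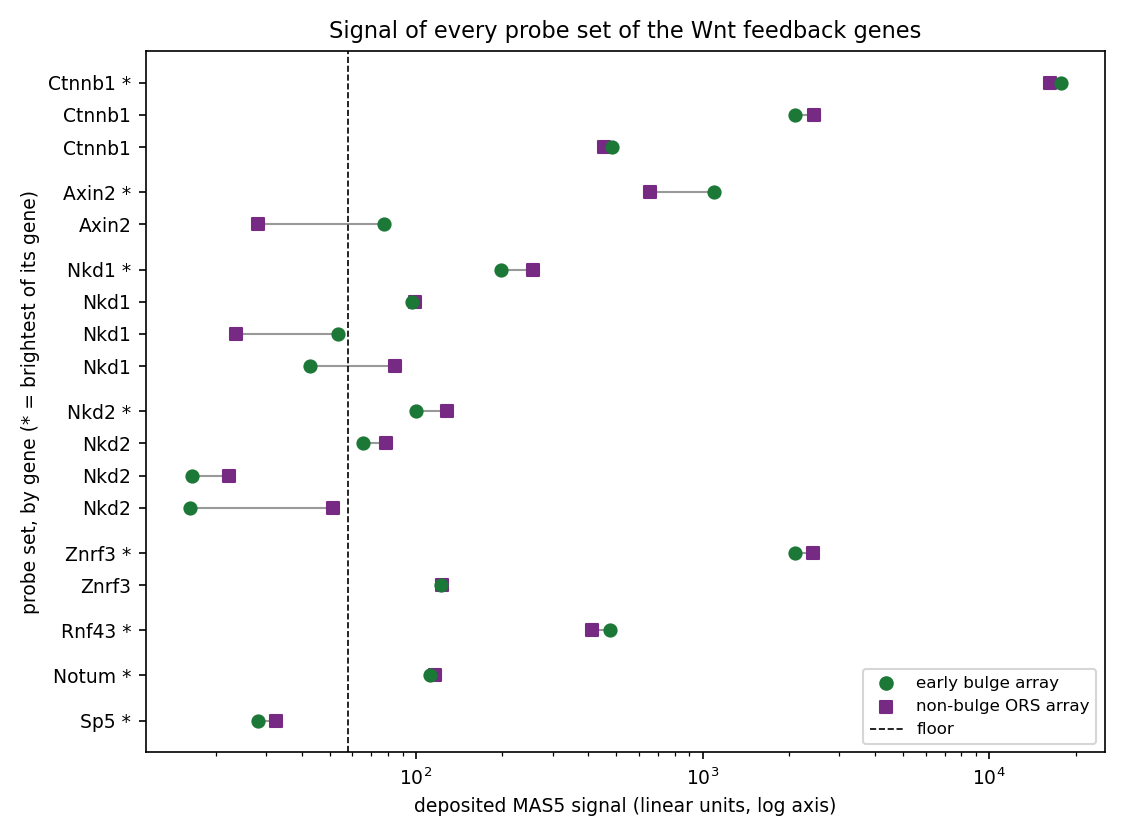
Deposited MAS5 signal (log axis) of the 18 probe sets of the Wnt feedback and target genes in early bulge (green circles) and ORS (purple squares); a star marks the probe set that stands for its gene and the dashed line is the floor of 57.8. Among the starred pairs at or above the floor the gap is widest for Axin2 (1.67-fold), and 4 probe sets lie below the floor on both arrays.

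Beta-catenin mRNA was bright on both arrays and differed little. The probe set standing for Ctnnb1 gave 17824 in early bulge and 16248 in ORS, a log2 ratio of 0.13 (1.10-fold). Its other probe sets gave 481 and 454 (log2 ratio 0.08) and 2100 and 2444 (log2 ratio -0.22). The 3 probe sets thus differed in sign, and their ratios all lay within the spread between probe sets. These values are of mRNA, while Wnt signals act on the amount of beta-catenin protein, which was not measured.

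Axin2, the scaffold often read as a reporter of Wnt activity, had the largest ratio of the set. Its signal was 1101 in early bulge and 657 in ORS, which is 1.67-fold higher in early bulge (log2 ratio 0.74). Its other probe set gave 77.5 in early bulge and 28.1 in ORS. The ORS value lay below the floor, so this probe set was at least 1.34-fold higher in early bulge. Since it reached the floor in early bulge alone, it could only come out brighter there and adds no separate support for the direction. Of all measured genes, 20.8% had a ratio of larger absolute size than that of Axin2. When the log2 signals of both probe sets were averaged before the floor was set, Axin2 had a log2 ratio of 1.10 and passed the 2-fold limit. Averaging the ratios after the floor was set, an alternative chosen after seeing the data, gave 0.58.

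The Naked cuticle genes leaned to the ORS array by less than 2-fold. Nkd1 had signals of 198 in early bulge and 256 in ORS, a log2 ratio of -0.37 (1.29-fold higher in ORS). Of its other 3 probe sets, 1 gave 97.1 and 99.3 (log2 ratio -0.03). A second was below the floor in early bulge (42.9) and above it in ORS (84.7), so at least 1.47-fold higher in ORS. The remaining one was below the floor on both arrays, at 53.3 and 23.6. Nkd2 had signals of 99.8 and 128, a log2 ratio of -0.36 (1.28-fold higher in ORS). Its other probe set above the floor gave 65.6 and 78.6 (log2 ratio -0.26), and 2 more were below the floor on both arrays. The probe sets of Nkd1 and Nkd2 at or above the floor on both arrays were thus all brighter in ORS, from 1.02-fold to 1.29-fold. The Nkd1 probe set that reached the floor in ORS alone could only come out brighter there, so it adds no separate support. Probe sets below the floor on both arrays were not ordered.

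The membrane ubiquitin ligases Znrf3 and Rnf43 were measured on both arrays with ratios of opposite sign and like size. Znrf3 gave 2107 in early bulge and 2434 in ORS, a log2 ratio of -0.21 (1.16-fold higher in ORS). A second, dimmer probe set of Znrf3 gave 122 and 123 (log2 ratio -0.02). Rnf43 gave 475 and 412 on its only probe set, a log2 ratio of 0.21 (1.15-fold higher in early bulge). Neither ratio exceeded the spread between probe sets. R-spondins and their Lgr receptors are known to withdraw these ligases from the cell surface. Lgr4, Lgr6 and the R-spondins are given here after their values were seen, and Lgr5 by rule. Lgr4 had signals of 7338 and 5938 (log2 ratio 0.31) and Lgr5 had 2795 and 3017 (log2 ratio -0.11). Lgr6, a stem cell marker of the upper follicle, had 7155 and 2135 and was 3.35-fold higher in early bulge, with its second probe set 2.69-fold higher. Rspo1 gave 103 and 104 (log2 ratio -0.01). Rspo2 gave 76.3 in early bulge and was below the floor in ORS (52.7), at least 1.32-fold higher in early bulge. Rspo3, also in the dermal papilla list, was below the floor in early bulge (34.2) and gave 107 in ORS, at least 1.85-fold higher there. Rspo4 was below the floor on both arrays.

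The secreted feedback enzyme and the nuclear target were dim. Notum had signals of 112 in early bulge and 117 in ORS on its only probe set, a log2 ratio of -0.06 (1.04-fold). Sp5 gave 28.1 and 32.6 on its only probe set, below the floor on both arrays, so no ratio is given. Negative control probe sets (TrpnX) reached at most 28.1. At this sensitivity a difference in Sp5 between the populations was not detectable.

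**Figure D2:**
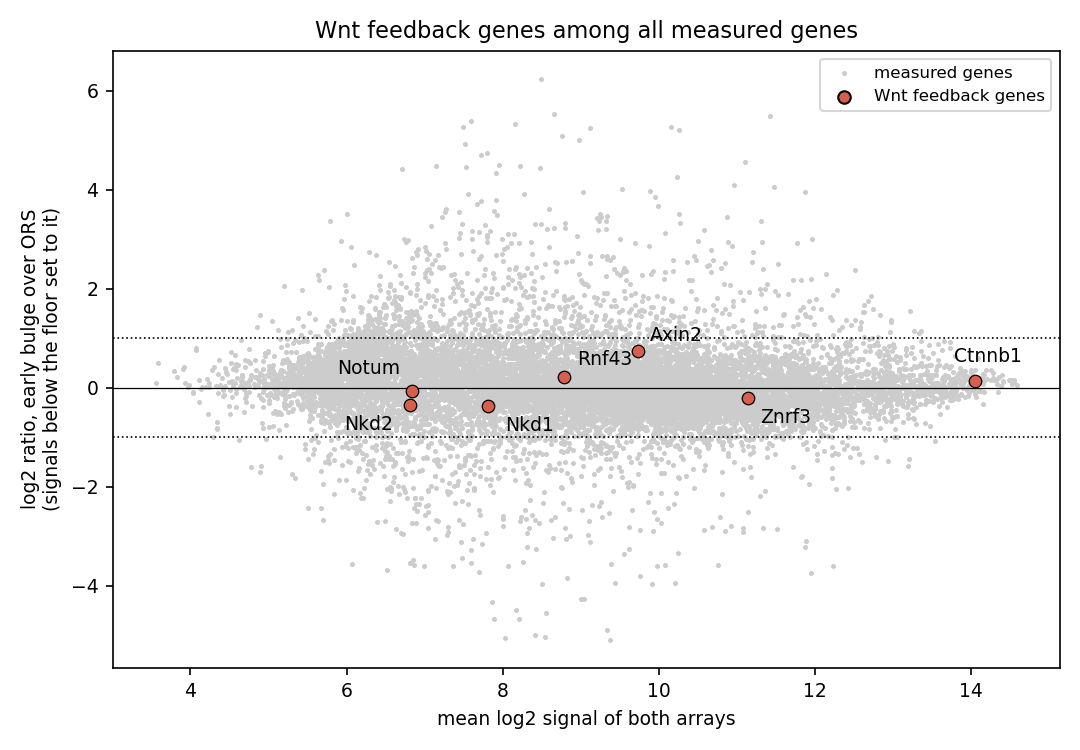
Log2 ratio of early bulge over ORS (vertical axis) against the mean log2 signal of both arrays (horizontal axis) for the 13252 measured genes (grey) and the 7 measured Wnt feedback and target genes (red); dotted lines mark 2-fold. All 7 red points lie between the dotted lines, with Axin2 the highest at 0.74 and Nkd1 the lowest at -0.37.

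Genes for beta-catenin turnover and Dishevelled signalling were 2-fold apart about as often as all measured genes (12.5% and 12.1%). Of 26 genes for beta-catenin turnover and Dishevelled signalling, 24 were measured. Of these, 2 were at least 2-fold higher in early bulge, 1 was at least 2-fold higher in ORS and 21 were under 2-fold apart, with a median log2 ratio of -0.03. On the brightest probe sets the core of the destruction complex differed little, while some dimmer ones differed more. Apc, the large scaffold of the complex, had signals of 3389 and 3116 (log2 ratio 0.12), with its other measured probe sets at 0.24 and 0.46. Axin1, the constitutive relative of Axin2, had 1447 and 1383 (log2 ratio 0.06), and its second probe set gave a log2 ratio of 0.80. The kinase Gsk3b had 2726 and 2441 (log2 ratio 0.16), with its other probe sets between 0.12 and 0.80. The 3 largest differences of this list were those of Dixdc1, Frat1 and Dact1. Dixdc1, which carries a DIX domain like that of Dishevelled and Axin, was 10.0-fold higher in early bulge (3915 and 390). Of its other probe sets, 2 were at least 1.65-fold and at least 2.13-fold higher there. These reached the floor in early bulge alone, so they add no separate support for the direction. Dact1, a Dishevelled-binding protein, was 2.33-fold higher in early bulge (1303 and 560). Frat1, which binds Gsk3, was below the floor in early bulge (31.7) and gave 195 in ORS, at least 3.37-fold higher there.

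TCF/LEF factors and their nuclear partners included genes 2-fold apart in both directions. Among TCF/LEF factors and these partners, 20.8% of the measured genes were 2-fold apart, against 12.1% of all measured genes. Of 25 TCF/LEF factors and partners, 24 were measured, 4 of them at least 2-fold higher in early bulge, 1 at least 2-fold higher in ORS and 19 under 2-fold apart (median log2 ratio -0.02). Lef1, a TCF/LEF factor of the hair matrix and precortex, was the 1 higher in ORS. Its signals were 250 and 1526 (6.11-fold). Its second probe set, at least 1.78-fold higher there, reached the floor in ORS alone and adds no separate support. Lef1 also stands in the hair matrix list, most of which was higher in ORS, as given above. Tcf7l1, a TCF factor known as a repressor in follicle stem cells, had 2670 and 2111 (log2 ratio 0.34), and Tcf7l2 had 1711 and 1282 (log2 ratio 0.42), with other probe sets from -0.51 to 0.23. The Groucho-related Tle genes, several of which encode corepressors that bind TCF factors when beta-catenin is absent, were split. Tle1 was 10.1-fold higher in early bulge (1414 and 140), and its other probe set 3.15-fold higher. Tle4 was 5.30-fold higher (1586 and 299), with another probe set 2.54-fold higher. A further one, at least 1.37-fold higher, reached the floor in early bulge alone and adds no separate support. Tle2, named after its value was seen, was 4.83-fold higher (478 and 99.0), whereas Tle3 (log2 ratio -0.14, other probe sets up to 0.79) and Tle5 (-0.01), also named after their values were seen, were under 2-fold apart. Bcl9, a coactivator that links beta-catenin to Pygopus and was named in the same way, lay at the 2-fold limit (230 and 115), with a second probe set at 1.25-fold.

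Outside the feedback genes, each list of the pathway held genes 2-fold apart. The share was 30.8% for Wnt ligands, 35% for Frizzled, Lrp, R-spondin and Lgr genes and 38.5% for secreted inhibitors. Over all measured genes it was 12.1%, and the difference was not tested. The lists were not matched to all genes for signal and were chosen with earlier results of these data known. Of 13 measured Wnt ligands, 2 were at least 2-fold higher in early bulge and 2 in ORS. Wnt5a, a ligand of non-canonical signalling, was 4.35-fold higher in ORS (501 and 2177), with other probe sets at 1.33-fold and 3.85-fold. A further one, at least 6.25-fold higher, reached the floor in ORS alone and adds no separate support. Wnt9a was 4.27-fold higher in ORS (75.9 and 324). Wnt7b, a ligand of the follicle epithelium, was 2.92-fold higher in early bulge (765 and 262). Of 20 measured Frizzled, Lrp, R-spondin and Lgr genes, 3 were at least 2-fold higher in early bulge and 4 in ORS. The receptor Fzd4 was 6.07-fold higher in ORS (165 and 1004), whereas for Fzd3 early bulge was 3.63-fold higher (838 and 231), while a dimmer probe set gave 0.43 on the log2 scale. The list of secreted inhibitors also holds the membrane inhibitor Apcdd1. Of its 13 measured genes, 4 were at least 2-fold higher in early bulge and 1 in ORS. The last was Sfrp2 (44.3, below the floor, and 324, at least 5.61-fold). The largest of these ratios were at the receptor and inhibitor level. Ror2, a receptor for Wnt5a, was 15.5-fold higher in ORS (91.8 and 1427), and Sostdc1, an inhibitor of Wnt and BMP signals, was 15.6-fold higher in early bulge. Of 13 dermal fibroblast markers, 11 were also 2-fold or more higher in ORS. All 8 upper follicle and junctional zone markers were 2-fold or more higher in early bulge. The part of such cells in these ratios was not tested. Over the 110 measured pathway genes other than the feedback set, each counted once, 15 were at least 2-fold higher in early bulge and 13 in ORS, together 25.5%. The corresponding count among the 7 feedback and target genes was 0. With 7 genes on 2 arrays, this difference in counts was not tested.

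**Figure D3:**
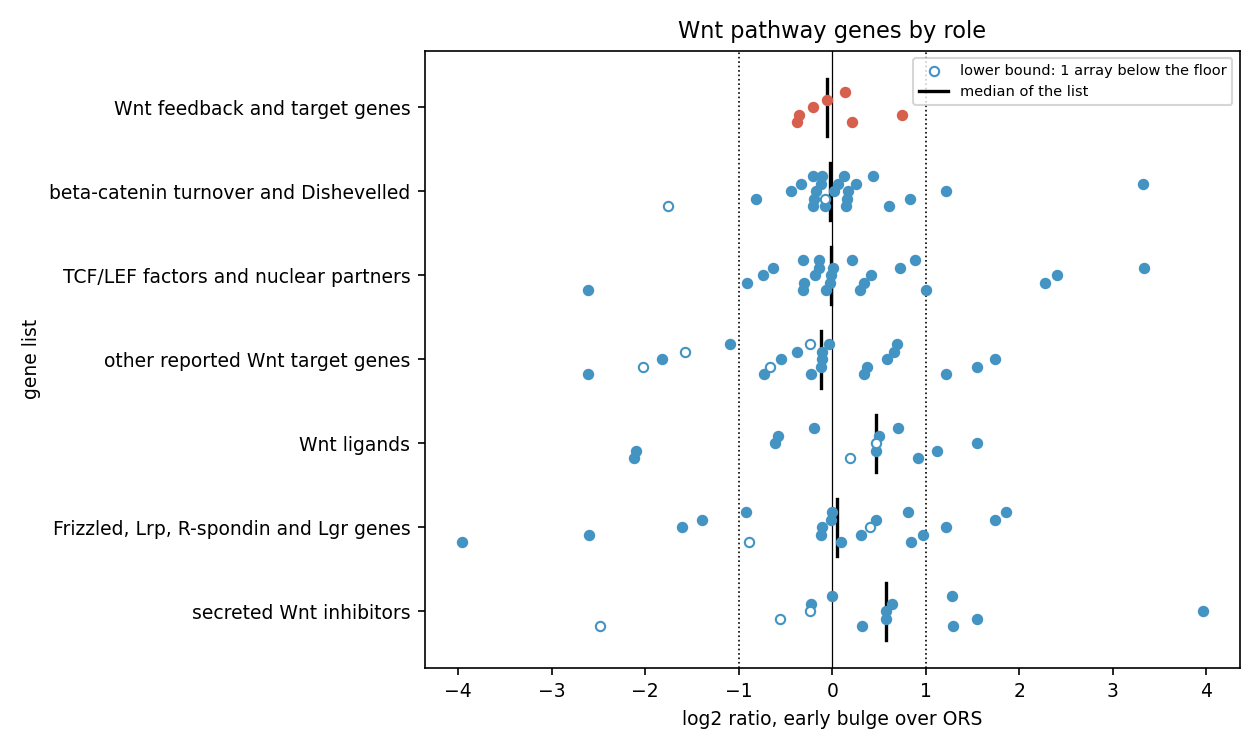
Log2 ratio of early bulge over ORS (horizontal axis) for every measured gene of 7 Wnt pathway lists (rows); black bars are list medians, open circles are lower bounds with 1 array below the floor, dotted lines mark 2-fold, and height within a row only separates the points. The 7 feedback and target genes (red) lie from -0.37 to 0.74, and the 6 other lists each hold points beyond a dotted line.

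The ratios of the 7 genes were also computed under other scalings, floors and choices of probe set. Axin2 was brighter in early bulge under all 10 alternatives, at log2 ratios from 0.53 to 1.10. Nkd1 and Znrf3 were brighter in ORS under all 10, Nkd2 under the 9 in which it was measured and Notum under the 8 in which it was measured. Not all of these alternatives could turn a sign. The other floors, no floor and the removal of _s, _x and _a probe sets gave every gene measured under them exactly its main ratio. A pseudocount added to both signals keeps the sign as well. Rnf43 and Notum have 1 probe set each, so the averages over probe sets also returned their main ratios. For these genes only the scalings could turn a sign. The sign of Rnf43 turned under median centring (-0.01). The sign of Ctnnb1 turned there (-0.08) and when its probe sets were averaged, where the ratio was close to 0. Median centring moved the median of all measured genes from 0.04 to -0.17, and each of the 7 genes with it.

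**Figure D4:**
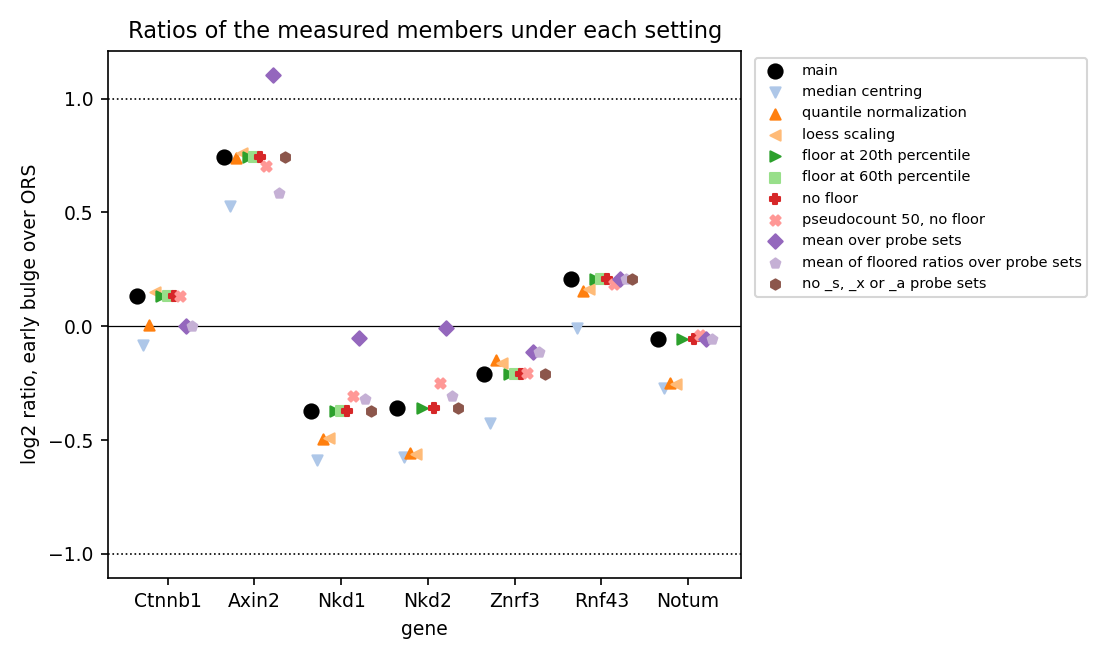
Log2 ratio of early bulge over ORS (vertical axis) of the 7 measured genes (horizontal axis) under the main setting (black) and 10 alternatives (coloured markers); dotted lines mark 2-fold. Only the Axin2 value from averaged probe set signals, 1.10, lies beyond a dotted line.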

How the data were processed

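RNA of 2 sorted populations was measured on 1 Affymetrix array each. Per the submitters' processing notes, the authors used MAS5 and Affymetrix Expression Console, with no version stated, and deposited a linear signal intensity for each probe set. Both arrays had a 2% trimmed mean of 500.0, so they had been scaled to 1 target. Detection calls and the genome build used upstream are not given in the sources used here.

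In the platform annotation 34958 probe sets had 1 gene symbol (13 of them controls, left out), 932 several, and 9160 more, controls aside, none. Only those with 1 symbol were used. The brightest probe set by mean log2 signal stood for a gene. Signals below the floor (57.8) were set to it, and a ratio with 1 array below it is a lower bound, written as at least N-fold. A probe set that reached the floor on 1 array alone can only be brighter there, so its direction is no separate support. Genes were counted as apart at 2-fold. With 1 array per group there was no test, and the number of arrays limits the precision.

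The genes and lists were chosen with earlier results of these data known. All 9 genes were to be named, and of each other pathway list the 3 largest absolute ratios, plus Lef1, Tcf7l1, Tcf7l2, Ccnd1, Lgr5, Apc, Gsk3b, Axin1, Sox9 and Krt14. Of 266 listed genes, 255 matched a probe set. The 9 alternatives were median centring, quantile normalization, loess scaling (span 0.4, statsmodels 0.14.6), no floor, a floor at the 20th or the 60th percentile, a pseudocount of 50, the mean over probe sets, and no _s, _x or _a probe sets. A further 1 was added after seeing the data. The procedure was tested on simulated arrays.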

Additional observations from a re-analysis of the deposited data

How the results depend on the processing

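No paired analysis was possible because each population has 1 array. Without replicates, a ratio or median was taken as moved when it shifted by more than 0.34 on the log2 scale, the spread of a probe set's ratio within a gene, and a count when it shifted by over 1.5 times. With the mean over probe sets, Axin2 had 1.10 (0.74 in the main setting), Nkd2 -0.0095 (-0.36), 1 feedback gene (main 0) was 2-fold apart and 1 Wnt ligand (main 4). This mean includes probe sets below the floor. Without a floor, 8 Wnt ligands (main 4) and 5 beta-catenin turnover genes (main 3) were 2-fold apart. The median of the Wnt ligands was 0.067 at the 60th percentile floor (main 0.46), and that of the secreted inhibitors 0.15 with the pseudocount (main 0.58). Over all genes, 1602 were 2-fold apart in the main setting, 2854 at the 20th percentile floor, 1042 at the 60th and 4332 with none. Nkd2 and Notum were not measured at the 60th percentile floor, and Notum and Ctnnb1 had no probe set left without the _s, _x and _a types. Of 23 other named genes that were 2-fold apart in the main setting, none changed sign where it was measured, but 9 fell under 2-fold in at least 1 alternative. With the mean over probe sets, the log2 ratio of Fzd3 was 0.99, that of Wnt7b 0.80 and that of Dixdc1 1.79, and Wnt9a was not measured. At the 60th percentile floor, Frat1 (-0.18), Ccn4 (-0.45), Sfrp2 (-0.92), Wnt9a (-0.91) and Twist1 (-0.0064) fell under 2-fold. Krt14 was 0.94 after median centring. Bcl9 fell under 2-fold in 6 alternatives, to between 0.42 and 0.85.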

Other observations

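Other genes reported as Wnt targets in various tissues went both ways. Of those measured, 34.8% were 2-fold apart, against 12.1% of all measured genes. Of 29 with a probe set, 23 were measured, 3 of them at least 2-fold higher in early bulge and 5 in ORS, with a median log2 ratio of -0.12. Besides Lgr6, the membrane inhibitor Apcdd1 was 2.91-fold higher in early bulge (16306 and 5596). All of its probe sets above the floor on both arrays were brighter there, by 2.91-fold or more. The dimmest, at least 2.65-fold higher, reached the floor in early bulge alone and adds no separate support. Besides Lef1, the BMP pseudoreceptor Bambi was 3.53-fold higher in ORS (250 and 881), and the secreted protein Ccn4 was below the floor in early bulge and at least 4.06-fold higher in ORS. Twist1, named after its value was seen and also a gene of dermal cells, was below the floor in early bulge (5.21) and gave 173 in ORS, at least 2.99-fold higher. Of the 13 fibroblast markers 11 were 2-fold or more higher in ORS too, and their part in this was not tested. The cell cycle gene Ccnd1 had 3216 and 4178 (log2 ratio -0.38), with its other probe sets at -0.52 and -0.32.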
